A study of Homo sapiens with 7 samples.

Results

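The zinc finger gene cluster at the end of the long arm of human chromosome 19 was taken as the RefSeq protein-coding genes whose symbols start with ZNF or ZSCAN and whose start lies between 52 Mb and the end of the chromosome (GRCh38.p14). These were 102 genes, 95 named ZNF and 7 named ZSCAN, among 224 protein-coding genes of the span and 19974 on chromosomes 1 to 22 and X. The choice used names and positions only and no measured value, but it was made with earlier results of these data known. It includes 2 read-through loci, ZNF816-ZNF321P and ZNF765-ZNF761, and the divergent locus ZNF470-DT, and 15 of the 102 genes overlap another of them. The genes had a median length of 19253.5 bp (2469 to 146976), against 11848.5 bp for the 122 genes of other names in the span and 24170.5 bp for all protein-coding genes.

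Binding had been mapped by chromatin immunoprecipitation and sequencing (ChIP-seq) in OCI-Ly7, an established cell line from a human diffuse large B-cell lymphoma, grown in suspension. Antibodies to MED1, EP300, CREBBP, OCA-B, OCT1 and OCT2 gave 1 library each, and 1 input library served as the control of all 6 peak lists. The cells carried no stated treatment or altered gene, so the groups differ only in the antibody. With 1 library for each factor, every share and fold below describes that library and has no replicate check.

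Most zinc finger genes of this region encode C2H2 zinc finger proteins, many with a KRAB domain, which bind DNA through tandem fingers and recruit TRIM28 and the methyltransferase SETDB1 to silence transposable elements and other sequences. The cluster grew by repeated tandem duplication, so neighbouring genes and their starts are often close copies of each other. OCA-B, the product of POU2AF1, is a lymphoid coactivator without a DNA-binding domain of its own that is held on octamer DNA by the octamer-binding proteins OCT1, encoded by POU2F1, and OCT2, encoded by POU2F2. EP300 and CREBBP are related histone acetyltransferases, and MED1 belongs to the Mediator complex. MED1, CREBBP and EP300 are called the coactivators below, as opposed to the octamer factors OCA-B, OCT2 and OCT1.

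The libraries held 12357450 (CREBBP) to 27885791 (EP300) tags after duplicate removal, and the lists held 23571 (OCT1) to 82569 (EP300) peaks. Of these, 127 (MED1) to 265 (OCA-B) lay in the span. All folds are enrichments over the control as the authors' peak caller gave them, and they do not rank factors, because depth, duplicates and antibody differ between lists. As a check of the cell type, 9 (OCT1) or 10 (each other list) of 10 B cell marker genes had a peak within 1 kb of a gene end. The counts were 2 to 4 of 8 for T cell markers, 0 to 1 of 8 for myeloid markers and 0 to 2 of 8 for erythroid markers.

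The octamer factors were at the ends of many genes of the cluster, while the coactivators were at fewer. A peak within 1 kb of either gene end, called an occupied end here, was present for OCA-B at 57 of the 102 genes (55.9%), against 46.2% of all protein-coding genes. OCT1 was at 53 (51.96%, against 41.9%) and OCT2 at 48 (47.1%, against 40.9%). EP300 was at 37 (36.3%, against 45.5%), MED1 at 26 (25.5%, against 33.7%) and CREBBP at 24 (23.5%, against 31.0%). The cluster thus lay above the share of all genes for each octamer factor and below it for each coactivator. The OCT2 part of this did not hold when each list was shortened to the length of the OCT1 list by −log10 q, where OCT2 was at 12.7% of the cluster and 19.1% of all genes and EP300 at 3.92% and 17.6%.

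The 122 other genes of the span had fewer occupied ends for the octamer factors. OCA-B was at 35.2% of them, OCT2 at 24.6% and OCT1 at 28.7%, which is 20.6, 22.5 and 23.3 percentage points below the zinc finger genes. For MED1 (22.1%), CREBBP (24.6%) and EP300 (32.0%) the differences were 3.36, -1.06 and 4.31 points. With the lists shortened to the length of the OCT1 list, the OCT2 difference was -0.370 points and the EP300 difference -5.09 points. These other genes include 34 receptor genes of the LILR, KIR, NLRP, SIGLEC, FPR, VN1R and related families, of which 0 had OCT1 at an end and 4 had OCA-B. Among 7 zinc finger genes of other names, such as PEG3 and MZF1, 1 to 2 had an occupied end in each list. The remaining 81 genes had OCA-B at 45.7%, OCT2 at 29.6% and OCT1 at 40.7%. Without the receptor genes, a comparison added after seeing the data, the OCA-B difference at ends was 11.6 points, the OCT2 difference 18.6 and the OCT1 difference 12.2, and the MED1 and EP300 differences were -2.92 and -2.36 points.

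ZNF and ZSCAN genes elsewhere were occupied at least as often by the coactivators as all genes were. The 155 on the rest of chromosome 19 had OCA-B at 63.2% of genes, OCT2 at 54.2%, OCT1 at 49.7%, MED1 at 36.8%, CREBBP at 35.5% and EP300 at 55.5%. The 282 on other chromosomes had 61.0%, 49.6%, 59.6%, 41.1%, 36.9% and 55.7% in the same order. The coactivator shares of both sets lay above those of all genes, whereas those of the cluster lay below, and the difference between the sets was not tested.

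**Figure D1:**
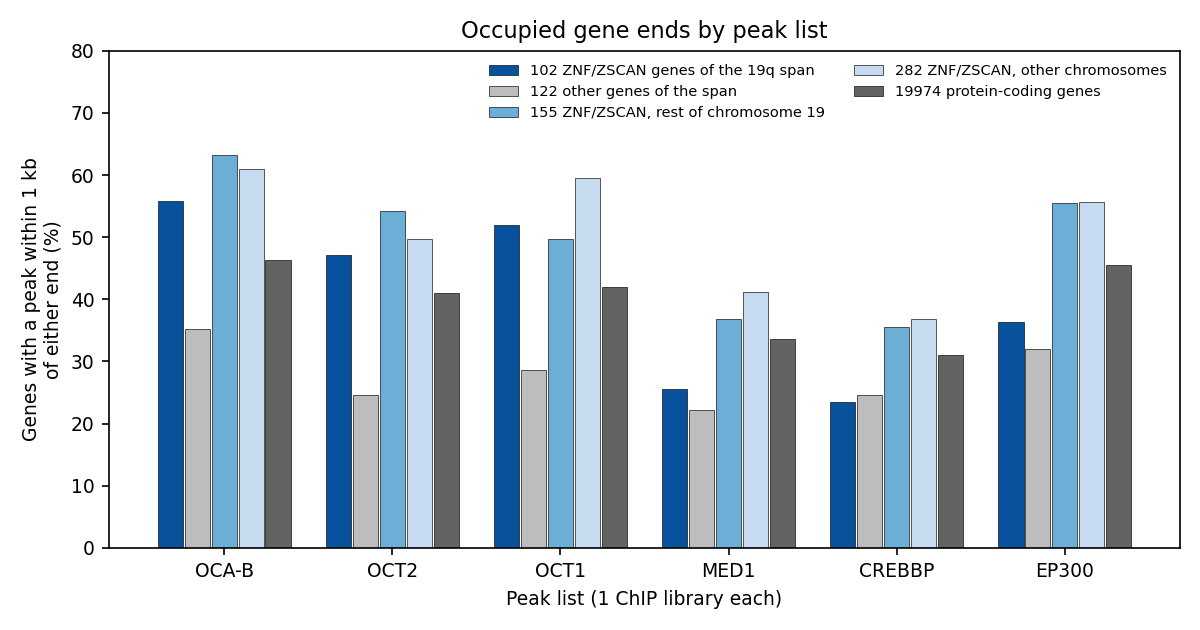
Share of genes (%) with a peak within 1 kb of either gene end in each of the 6 peak lists, for the 102 ZNF and ZSCAN genes of the span and 4 comparison sets, with no error bars because each list comes from 1 library. The cluster stands above all protein-coding genes for OCA-B, OCT2 and OCT1 and below them for MED1, CREBBP and EP300.

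When peaks inside the genes were counted as well, 75 of the 102 genes had a peak in at least 1 list. OCA-B and OCT1 each reached 65 genes (63.7%, against 60.3% and 52.7% of all genes) and OCT2 reached 57 (55.9%, against 60.6%). EP300 reached 44 (43.1%, against 61.6%), CREBBP 32 (31.4%, against 47.6%) and MED1 30 (29.4%, against 46.7%). All 6 lists met at 24 genes, 23.5% of the cluster against 35.3% of all genes, and 27 genes (26.5%) had no peak in any list, against 28.1% of all genes. OCT2 was the octamer factor whose share by this count was below that of all genes.

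Many gene ends of the cluster held octamer factors without coactivators. At 24 of the 102 genes (23.5%) an end was occupied by an octamer factor and by no coactivator, against 9.84% of the other genes of the span and 8.46% of all genes. ZNF and ZSCAN genes stood at 11.0% on the rest of chromosome 19 and 14.9% on other chromosomes. A coactivator without any octamer factor was found at 0 genes of the cluster and 5 other genes of the span (2.30% of all genes). OCA-B, OCT2 and OCT1 together without MED1 were at 17 genes (16.7%), 3 other genes of the span and 5.08% of all genes. For ZNF and ZSCAN genes this share was 10.3% on the rest of chromosome 19 and 8.87% on other chromosomes. Both kinds of factor were at 41 genes (40.2%), against 45.2% of all genes, and 37 genes (36.3%) had no occupied end, against 44.0%. An end was thus occupied in any list at 65 genes (63.7%, against 56.0%). All 3 octamer factors were at 38 (37.3%, against 30.7%) and all 3 coactivators at 20 (19.6%, against 26.9%). OCA-B and OCT1 were together at 47 genes (46.1%, against 36.7%). OCA-B stood without OCT1 at 10 (9.80%, against 9.56%) and OCT1 without OCA-B at 6 (5.88%, against 5.25%). OCT1 and OCT2 shared 39 genes (38.2%, against 31.8%), OCT1 was without OCT2 at 14 (13.7%, against 10.1%) and OCT2 without OCT1 at 9 (8.82%, against 9.14%). Of the 26 genes with MED1 at an end 25 also had OCA-B, as did 36 of 37 with EP300 and 24 of 24 with CREBBP. OCA-B was common beside coactivators over all genes too. At ends of all protein-coding genes, 84.4% of MED1 peaks, 85.8% of CREBBP peaks and 76.8% of EP300 peaks overlapped an OCA-B peak. The same shares at cluster gene ends were 93.5%, 92.9% and 95.6%.

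**Figure D2:**
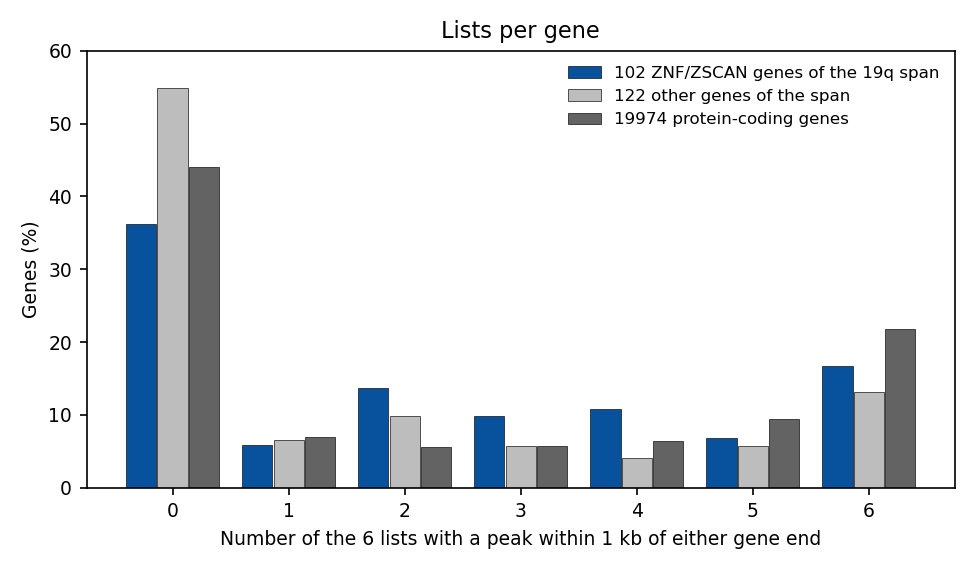
Share of genes (%) by the number of the 6 lists with a peak within 1 kb of either gene end, for the cluster, the other genes of the span and all protein-coding genes. The cluster has 17 genes in all 6 lists (16.7%, against 21.8% of all genes) and a larger share of genes in 2, 3 or 4 lists than either comparison set.

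At the level of single peaks, of the 78 OCA-B peaks at ends of cluster genes 52 (66.7%) overlapped an OCT1 peak by at least 1 bp, against 46.0% of 13800 OCA-B peaks at ends of protein-coding genes. OCT2 was overlapped by 48 (61.5%, against 67.4%). Of the same peaks 29 (37.2%) overlapped MED1, against 56.2%, 27 (34.6%) overlapped CREBBP, against 49.3%, and 43 (55.1%) overlapped EP300, against 76.2%. Of the 45 EP300 peaks at cluster gene ends 43 (95.6%) overlapped OCA-B, against 76.8%. The 434 peaks at cluster genes merged into 154 regions, 94 at gene ends and 60 inside genes. Of the end regions 16 were in all 6 lists, 13 were in the OCT1 list alone, 11 in the OCA-B list alone and 9 in exactly these 2 lists. Regions were not counted over all genes, and some in a single list lay beside a region of the same gene in more lists. Counted by gene, OCT1 alone was at the ends of 3 genes (2.94%, against 3.07% of all genes). OCA-B alone was at 1 (0.980%, against 0.986%), and exactly these 2 lists were at 9 (8.82%, against 1.98%).

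Within each list, the median fold of OCA-B peaks at cluster gene ends was 6.83, against 5.97 for OCA-B peaks at ends of all protein-coding genes. OCT1 stood at 6.07 against 5.98 and OCT2 at 5.58 against 5.74. The coactivator medians were lower, at 4.66 against 5.46 for MED1, 5.43 against 6.07 for CREBBP and 4.39 against 5.40 for EP300. The median −log10 q was 6.90 against 9.36 for MED1, 6.48 against 9.30 for CREBBP and 9.72 against 11.0 for EP300, and 12.5 against 10.1 for OCA-B. The median pileup signal at the summit was 22.5 against 21 for OCA-B and 26 against 26 for EP300. It was 21 against 23 for OCT2, 23 against 24 for OCT1, 22 against 22 for MED1 and 16.5 against 18 for CREBBP.

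Peaks were at the start of the genes rather than at the far end. The strand could be used for 75 genes whose start in the RefSeq promoter table is an end of the gene. OCA-B was within 1 kb of the start in 47 of them (62.7%, against 46.6% of 13792 such genes), OCT1 in 46 (61.3%, against 44.6%) and OCT2 in 41 (54.7%, against 39.8%). EP300 was at 30 starts (40%, against 44.8%), MED1 at 23 (30.7%, against 33.5%) and CREBBP at 20 (26.7%, against 29.6%). The far end was occupied in 4 genes for OCA-B and OCT1, 3 for OCT2 and CREBBP and 1 for MED1 and EP300, against 10.2%, 4.66%, 10.6%, 7.90%, 7.12% and 10.3% of all such genes in the order named. Inside the genes, more than 1 kb from both ends, there were 0.174 OCA-B and 0.114 EP300 peaks per 10 kb. The other genes of the span had 0.363 and 0.409. ZNF and ZSCAN genes had 0.120 and 0.148 on the rest of chromosome 19 and 0.221 and 0.330 on other chromosomes. A low density inside genes was thus not particular to the cluster, and it was not counted over all genes.

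Among the lists, OCT1 had the largest share of its summits close to the start of cluster genes. Summit positions were not counted over all genes, so whether this is particular to the cluster was not tested. Summits were counted for each gene, so those at the starts that ZNF816 and ZNF765 share with read-through loci count for both genes. Of 51 OCT1 summits within 1 kb of a start 42 (82.4%) lay within 250 bp of it, and 37 were upstream, with a median position of -47 bp. The corresponding shares within 250 bp were 67.2% of 67 OCA-B summits, 53.8% of 52 OCT2, 71.4% of 35 EP300, 43.5% of 23 CREBBP and 40.7% of 27 MED1 summits. EP300 summits had a median position of -28 bp. OCA-B, MED1 and CREBBP summits lay to both sides of the start, with median positions of -102, -79 and -180 bp.

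**Figure D3:**
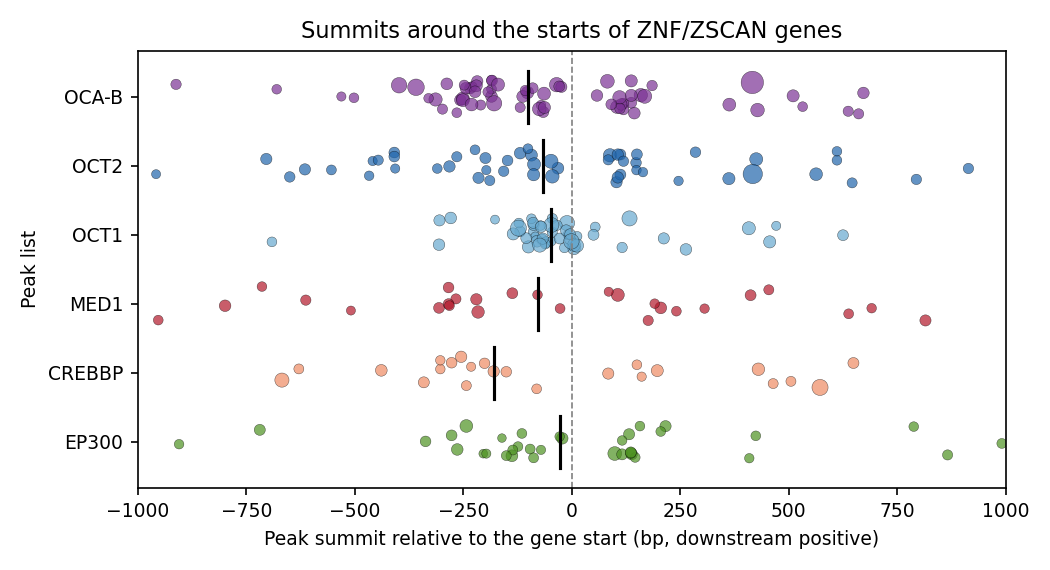
Position of peak summits relative to the start of 75 cluster genes (bp, downstream positive), 1 point for each summit within 1 kb, with point area growing with fold and a black bar at the median of each list. Summits at starts shared with a read-through locus are drawn for both genes. OCT1 summits gather just upstream of the start, and those of the other lists spread to both sides. Summit positions were not counted over all genes.

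The strongest end peaks of the octamer factors were at a few genes. ZNF784, a gene of 3826 bp at chr19:55620741-55624566, had an OCA-B fold of 35.2, an OCT2 fold of 25.5 and an OCT1 fold of 10.0, beside 4.555 for MED1, 5.03 for CREBBP and 3.599 for EP300. For OCA-B it was followed by ZNF865 (17.8), ZNF524 (16.9) and the adjoining genes ZNF324 and ZNF446, which share a peak of 15.3. For OCT2 it was followed by ZNF417 (13.9), ZNF416 (12.04) and ZNF776 (10.9), of which ZNF417 and ZNF416 had neither MED1 nor CREBBP. The highest OCT1 folds were at ZNF8 (16.5), ZNF497 (14.9), ZNF584 (14.6) and ZNF766 (14.4). ZNF8 had OCA-B as its only other peak (4.05), ZNF497 had OCA-B (9.55) and OCT2 (8.22), and ZNF584 had no other peak at an end. Strong OCT1 ends thus included genes with no coactivator in these lists.

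The strongest ends of the span for the octamer factors were at genes of other names. A peak between LENG9 and CDC42EP5 had an OCA-B fold of 89.8, an OCT1 fold of 93.9 and an OCT2 fold of 57.4, and PPP6R1 had 46.3 for OCA-B. Among genes of other names the next were PPP2R1A (22.7 for OCT2, below the 25.5 of ZNF784) and C19orf85 with ISOC2 (20.4 for OCT1, a shared peak). For the coactivators the highest values were at CCDC106, TMEM150B and HSPBP1 for MED1 (19.8, 16.7 and 11.4), at TNNI3, TMEM150B and CCDC106 for CREBBP (36.9, 33.5 and 27.5) and at TMEM150B, TNNI3 and CCDC106 for EP300 (29.9, 21.9 and 21.1).

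At gene ends of the cluster, the highest MED1 fold was at ZNF581 and the highest CREBBP and EP300 folds at ZNF580, and these genes overlap at chr19:55635003-55645623 and lie within 2 kb of CCDC106. At the ends of ZNF580 the folds were 9.18 for MED1, 16.6 for CREBBP and 16.1 for EP300, beside 12.3 for OCA-B, 8.04 for OCT1 and 9.92 for OCT2. ZNF581 had 10.3, 13.9 and 7.95 for the coactivators at its ends, and no OCT1 there. ZNF524 (15.4) and ZNF865 (12.1) completed the strongest CREBBP ends. For MED1 and EP300 they were ZNF616 (9.77 and 11.3) and ZNF460 (8.76 and 10.2), and for EP300 also ZNF761 (9.29).

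Among the 24 genes with a peak in 6 lists, the first 12 by the sum of their fold ranks over the lists were ZNF581, ZNF580, ZNF524, ZNF83, ZNF331, ZNF616, ZNF784, ZNF865, ZNF766, ZNF628, ZNF548 and ZNF460. Of these, ZNF628 had an OCA-B fold of 10.9, OCT2 of 9.82, OCT1 of 6.79, MED1 of 5.95, CREBBP of 8.85 and EP300 of 4.03. ZNF548 had 9.66, 7.21, 8.21, 5.85, 6.72 and 4.35 in that order. ZNF274, whose product is known to bind the far ends of other zinc finger genes and to recruit SETDB1, was also in all 6 lists at its ends. Its OCT1 fold was 14.3, and the others were 5.72 for EP300, 3.58 for CREBBP, 4.34 for MED1, 4.81 for OCT2 and 7.38 for OCA-B.

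**Figure D4:**
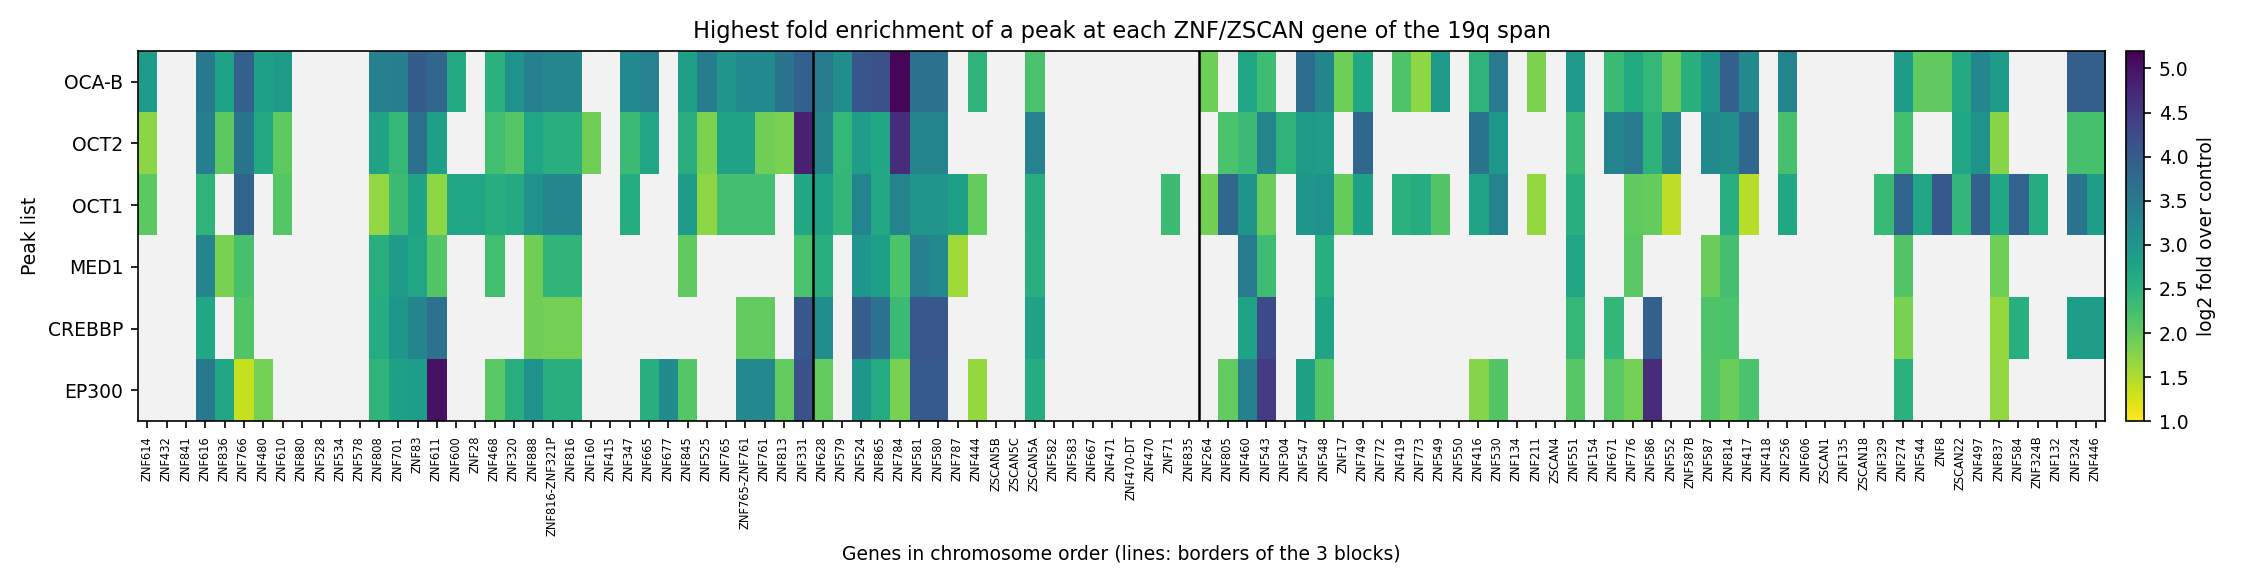
Highest fold enrichment (log2 colour scale) of any peak inside or within 1 kb of each of the 102 genes, in chromosome order, for the 6 lists, with grey where a list has no peak and black lines at 54 and 57 Mb. Genes without a peak stand in runs, and OCA-B and OCT1 reach most genes to the right of 57 Mb while the MED1 and CREBBP rows are sparse there.

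The 27 genes without a peak in any list were often neighbours. A run of 6 genes from ZNF582 to ZNF470 at chr19:56382751-56582894 (ZNF582, ZNF583, ZNF667, ZNF471, ZNF470-DT and ZNF470) was free of peaks in all lists. So were 4 genes from ZNF880 to ZNF578 at chr19:52366858-52516882 (ZNF880, ZNF528, ZNF534 and ZNF578) and 4 from ZNF606 to ZSCAN18 at chr19:57977053-58118426 (ZNF606, ZSCAN1, ZNF135 and ZSCAN18). The longest genes without a peak were ZNF578 (63330 bp), ZNF667 (38765 bp), ZNF841 (37276 bp) and ZSCAN18 (34585 bp), and ZNF415, ZNF550 and ZSCAN4 were others. Their median length was 20553 bp, against 18537 bp for the genes with a peak. ZNF154 was also among the genes without a peak.

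Of the 7 ZSCAN genes, which carry a SCAN dimerisation domain, 5 had no peak: ZSCAN1, ZSCAN4, ZSCAN5B, ZSCAN5C and ZSCAN18. ZSCAN4 is known for its activity in early embryos. ZSCAN22 had OCT2 (6.57) and OCT1 (5.35) at an end and OCA-B (6.20) inside. ZSCAN5A, the longest gene of the cluster at 146976 bp, had 21 peaks over the 6 lists, all more than 1 kb from both ends.

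The cluster was also described in 3 blocks, with borders at 54 and 57 Mb that were placed after the peaks had been seen. In the block from 52 to 54 Mb, 22 of 35 genes (62.9%) had OCA-B at an end, 17 (48.6%) OCT1, 17 (48.6%) EP300 and 11 (31.4%) MED1. In the block from 54 to 57 Mb, 9 of 20 genes had no peak, and OCA-B, OCT2 and MED1 were each at 7 (35.0%). From 57 Mb on, OCA-B and OCT1 were each at 28 of 47 genes (59.6%), against 14 (29.8%) for EP300, 9 (19.1%) for CREBBP and 8 (17.0%) for MED1. OCA-B or OCT1 without MED1 at an end was found at 23 of the 47 genes of this last block. It was found at 12 of 35 in the block from 52 to 54 Mb and 2 of 20 in between. The blocks differ in size, and the share of all genes in this class was not counted.

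Inside the genes, 17 of the 60 regions lay near another listed start of the same gene, and these included each of the 5 inside regions found in all 6 lists. They were at ZNF83, ZNF331 and ZNF814 and, with 2 of them, at ZSCAN5A. At the internal start of ZNF331, a gene known to be imprinted in some tissues, the folds were 8.08 for EP300, 6.24 for CREBBP, 4.58 for MED1, 6.41 for OCT1, 10.1 for OCT2 and 14.9 for OCA-B. ZNF331 had no peak within 1 kb of its outer ends, so the count at ends leaves it out. A further 1 region, in ZNF611, lay near a listed start of another gene only. The 42 regions near no listed start were mostly in a single list (29 of 42).

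Some inside regions carried strong CREBBP and EP300 peaks without OCT1, and these were named after their values had been seen. The region in ZNF611 at chr19:52733145-52733693 had folds of 32.4 for EP300, 12.5 for CREBBP and 14.1 for OCA-B. It lies near a listed start of another gene, LOC124904760. The region in ZNF586 at chr19:57774782-57775558 had 25.3 for EP300 and 15.1 for CREBBP, with 5.31 for OCA-B and 5.57 for OCT2. ZNF543 at chr19:57326229-57326807 had 21.9 and 19.1, and ZNF331 at chr19:53563506-53564207 had 17.8 and 16.4. A further ZNF331 region at chr19:53553094-53553546 had 28.3 for OCT2 and 11.8 for OCA-B, with EP300 at 4.32 and no CREBBP or MED1. The EP300 folds in ZNF611, ZNF586 and ZNF543 and the larger one in ZNF331 exceeded the highest EP300 fold at a cluster gene end (16.1). For CREBBP only ZNF543 did (16.6 at the highest end). The genes with most peaks more than 1 kb from their own ends over the lists were ZNF581 (23), ZSCAN5A (21), ZNF331 (17) and the read-through locus ZNF765-ZNF761 (9). Peaks at the ends of ZNF580, which lies within ZNF581, are part of the first count. Peaks at the start of ZNF761 are part of the last. These peaks belong to end regions and not to the 60 inside regions.

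The DNA before the starts is shown for genes with high octamer factor folds in the start window itself and for 2 long genes without a peak, to set occupied and unoccupied starts side by side. The RefSeq promoter table (GRCh38.p14) held 300-base windows, from 250 bases before to 50 after a start, for 90 of the 102 genes, 1 window for each gene was used, the one nearest its outer end, and the 250 bases before the start are printed 5′ to 3′ on the strand of the gene. Capitals mark CCGGAAGT, the core letters of ETS factor sites, and GGGCGG, those of SP and KLF factors, or their reverse complements ACTTCCGG and CCGCCC. Letters after the start are not printed, and the ETS letters in the window of ZNF416 begin there, at position 4. ZNF814 (chr19:57889038-57889287, minus strand) and ZNF331 (chr19:53520764-53521013, plus strand) had the highest OCA-B folds among these windows, at 15.0 and 14.9. ZNF749 (chr19:57435075-57435324, plus strand) and ZNF416 (chr19:57578912-57579161, minus strand) had the highest OCT2 folds, at 13.98 and 12.04. A second, internal window of ZNF83 held folds of 15.5 for OCA-B and 12.5 for OCT2 and is not among them. Stronger peaks near gene ends, such as those of ZNF784, lay outside these windows. ZNF8 (chr19:58278705-58278954, plus strand) and ZNF497 (chr19:58362752-58363001, minus strand) had the highest OCT1 folds, at 16.5 and 14.9. ZNF578 (chr19:52453303-52453552, plus strand) and ZNF667 (chr19:56477346-56477595, minus strand) had no peak.
ZNF814: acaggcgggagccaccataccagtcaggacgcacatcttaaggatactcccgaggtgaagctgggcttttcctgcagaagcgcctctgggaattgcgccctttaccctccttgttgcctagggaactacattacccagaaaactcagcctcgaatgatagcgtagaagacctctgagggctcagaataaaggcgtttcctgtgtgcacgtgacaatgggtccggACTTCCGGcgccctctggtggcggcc
ZNF331: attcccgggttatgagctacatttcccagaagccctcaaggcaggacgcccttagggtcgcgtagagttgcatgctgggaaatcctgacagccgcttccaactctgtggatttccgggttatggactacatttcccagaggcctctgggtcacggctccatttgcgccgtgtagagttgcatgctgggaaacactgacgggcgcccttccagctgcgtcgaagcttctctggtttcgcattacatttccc
ZNF749: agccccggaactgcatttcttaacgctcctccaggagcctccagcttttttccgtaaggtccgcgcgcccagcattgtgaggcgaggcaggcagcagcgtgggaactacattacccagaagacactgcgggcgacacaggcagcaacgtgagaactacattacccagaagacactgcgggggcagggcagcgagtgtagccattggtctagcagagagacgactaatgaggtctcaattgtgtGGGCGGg
ZNF416: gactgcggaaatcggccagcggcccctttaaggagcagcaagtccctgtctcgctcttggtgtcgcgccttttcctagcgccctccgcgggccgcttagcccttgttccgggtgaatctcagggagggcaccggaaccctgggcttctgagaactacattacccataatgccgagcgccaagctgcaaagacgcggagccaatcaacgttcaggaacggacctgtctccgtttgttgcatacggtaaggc
ZNF8: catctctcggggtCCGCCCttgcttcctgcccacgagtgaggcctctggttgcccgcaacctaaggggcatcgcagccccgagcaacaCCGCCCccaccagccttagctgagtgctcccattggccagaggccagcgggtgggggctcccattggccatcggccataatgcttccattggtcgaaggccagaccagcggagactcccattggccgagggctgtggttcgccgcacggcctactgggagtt
ZNF497: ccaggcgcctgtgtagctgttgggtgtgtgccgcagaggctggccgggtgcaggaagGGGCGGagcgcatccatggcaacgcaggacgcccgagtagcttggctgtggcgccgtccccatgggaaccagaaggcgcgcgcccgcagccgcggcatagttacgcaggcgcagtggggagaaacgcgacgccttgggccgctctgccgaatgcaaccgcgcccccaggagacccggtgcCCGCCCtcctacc
ZNF578: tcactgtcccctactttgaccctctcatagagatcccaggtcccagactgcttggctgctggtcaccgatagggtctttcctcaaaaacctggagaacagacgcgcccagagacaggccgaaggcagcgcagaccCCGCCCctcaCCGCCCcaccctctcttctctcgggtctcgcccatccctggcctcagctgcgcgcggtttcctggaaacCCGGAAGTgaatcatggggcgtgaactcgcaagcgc
ZNF667: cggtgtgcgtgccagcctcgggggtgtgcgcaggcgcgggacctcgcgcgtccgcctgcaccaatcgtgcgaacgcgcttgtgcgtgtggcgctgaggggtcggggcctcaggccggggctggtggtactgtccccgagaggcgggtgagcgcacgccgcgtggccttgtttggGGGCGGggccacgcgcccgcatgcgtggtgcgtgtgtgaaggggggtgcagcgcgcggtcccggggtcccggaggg

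The octamer letters ATGCAAAT, the sequence that POU factors are known for, were in none of these stretches. Searched on both strands of 1 window for each gene, they were in 0 of 90 cluster windows and 0 of 95 windows of the other genes of the span, against 1.72% of 15810 windows of protein-coding genes and 8.15% of 135 windows of ZNF and ZSCAN genes on the rest of chromosome 19. They were also in 0 of all 114 cluster windows. The ETS letters CCGGAAGT were in 30 of 90 cluster windows (33.3%), against 6.32% of the other genes of the span, 11.1% of the chromosome 19 remainder, 15.2% of ZNF and ZSCAN genes on other chromosomes and 6.17% of all windows. GGGCGG was in 73.3% of cluster windows, against 58.3% of all. TGACGTCA (CRE) was in 2 cluster windows, AAGATGGCG (within the YY1 motif) in 2, GCGCATGC (within the NRF1 motif) in 1 and CTCGCGAG in 0, against 2.56%, 2.69%, 4.28% and 1.54% of all windows. These letter matches describe the windows and are not binding sites.

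Windows with the ETS letters held OCA-B as often as those without them, and held EP300 more often. An OCA-B peak reached 15 of 30 cluster windows with CCGGAAGT and 30 of 60 without (50% each). An EP300 peak reached 13 of 30 (43.3%) with the letters and 14 of 60 (23.3%) without, and MED1 7 of 30 and 8 of 60. Among all windows the letters went with more peaks in each list, for example 63.9% against 29.9% for OCA-B and 53.2% against 25.2% for EP300.

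Cluster windows held a median of 24.5 CpG dinucleotides, against 13 in the other genes of the span and 22 in all windows. For ZNF and ZSCAN genes the median was 18 on the rest of chromosome 19 and 24 on other chromosomes. OCT1 peaks reached 54 of the 90 windows (60%, against 38.3% of all), OCA-B 45 (50%, against 32.0%) and OCT2 34 (37.8%, against 23.3%). EP300 reached 27 (30%, against 27.0%), MED1 15 (16.7%, against 16.3%) and CREBBP 13 (14.4%, against 15.1%). In this narrower count the coactivator shares were near those of all genes. Windows of ZNF and ZSCAN genes on the rest of chromosome 19 were reached by OCT1 in 54.1%, OCA-B in 65.9% and OCT2 in 55.6%. EP300 reached 54.1% of them, and MED1 and CREBBP 30.4% each. On other chromosomes the shares were 54.3% for OCT1, 47.8% for OCA-B, 29.1% for OCT2, 36.1% for EP300, 20.9% for MED1 and 19.1% for CREBBP. Among the 22 cluster windows with 30 or more CpG, OCT1 reached 13 (59.1%), OCA-B 4 (18.2%), EP300 3 (13.6%), CREBBP 1 (4.55%) and MED1 0. The same class over all 4730 windows stood at 49.5%, 22.9%, 15.8%, 6.55% and 7.12%. Among the 46 cluster windows with 20 to 29 CpG, OCT1 reached 31 (67.4%), OCA-B 28 (60.9%) and MED1 9 (19.6%), against 62.7%, 56.2% and 25.5% of all windows of that class.

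**Figure D5:**
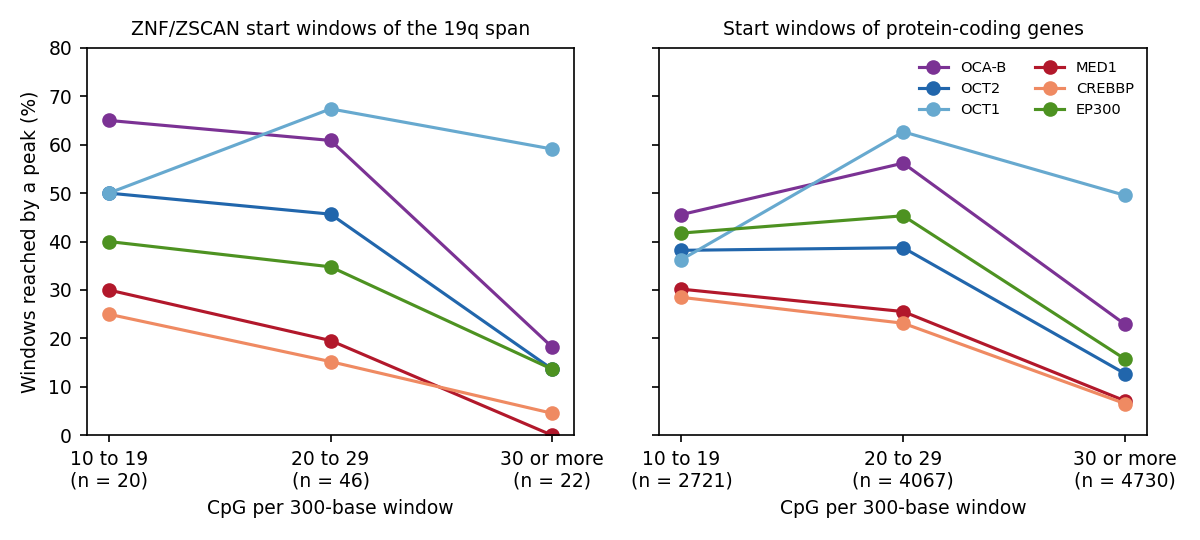
Share of start windows reached by a peak (%) against the number of CpG dinucleotides in the 300-base window, for the cluster on the left and all protein-coding genes on the right, with the number of windows under each class (2 cluster windows with fewer than 10 CpG are not drawn). In the richest class of the cluster OCT1 stays at 59.1% while OCA-B is at 18.2% and MED1 at 0.

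A pair of short runs of letters recurred among the starts of the cluster, and they are shown because each was found in a single block of it. All 10-letter words present in at least 12 cluster windows were ranked by their share in the cluster over their share in all windows, after the sequences had been seen, so their shares are a description only. ACTACATTAC was in 12 of 90 cluster windows and 15 of all 15810 windows. Each of the 12 genes lies in the block from 57 Mb on, and each carries the word on its own strand, beginning at positions -146 to -68 from the start. A site from each of 6 of these genes is printed with 10 bases on either side, the word in capitals, and ZNF749 holds 2 copies, of which 1 is printed. They are ZNF749 (chr19:57435169-57435198), ZNF416 (chr19:57578990-57579019), ZNF586 (chr19:57769531-57769560), ZNF814 (chr19:57889144-57889173) and, without a peak in any list, ZNF154 (chr19:57709306-57709335) and ZNF418 (chr19:57935482-57935511).
ZNF749: cagcgtgggaACTACATTACccagaagaca
ZNF416: gcttctgagaACTACATTACccataatgcc
ZNF586: atgtctgggaACTACATTACccagaatccg
ZNF814: tgcctagggaACTACATTACccagaaaact
ZNF154: atctatgaaaACTACATTACctagaatgct
ZNF418: aacctggggaACTACATTACccagaaagct

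GGAAGCGGAT was in 12 of 90 cluster windows and 33 of all windows. Each of these 12 genes lies in the block from 52 to 54 Mb, and the word begins 6 to 19 bases after the start, again on the strand of the gene. ZNF816 and its read-through locus share 1 window. The sites of ZNF808 (chr19:52527664-52527693), ZNF83 (chr19:52690461-52690490), ZNF611 (chr19:52735019-52735048), ZNF816 (chr19:52962854-52962883) and ZNF761 (chr19:53431980-53432009) are printed in the same way.
ZNF808: acgcaaacccGGAAGCGGATcgggtggagt
ZNF83: tcgcaaatctGGAAGCGGATcgcgtggagt
ZNF611: acgcaaacccGGAAGCGGATcgggtggagt
ZNF816: gcacagacccGGAAGCGGATggcgtggact
ZNF761: gtgcagaccaGGAAGCGGATagcgtggagt

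Peaks were counted at the genes with each word. Among the 12 with GGAAGCGGAT, 0 were without a peak and 6 were in all 6 lists, while 7 of the 17 other genes of that block with a window had no peak. A peak reached the start window of the 12 for OCA-B in 11, OCT1 in 9, OCT2 and EP300 in 8, MED1 in 4 and CREBBP in 2. For the 17 others of the block the counts were 9, 8, 7, 4, 3 and 3 in the order OCA-B, OCT1, OCT2, EP300, MED1 and CREBBP. Among the 12 with ACTACATTAC, 4 were without a peak and 1 was in all 6 lists. Of the 32 other genes of that block with a window, 7 were without a peak. An OCA-B peak reached the start window in 8 of the 12 (66.7%) and 13 of the 32 (40.6%), OCT2 in 6 (50%) and 11 (34.4%), and EP300 in 5 (41.7%) and 9 (28.1%). OCT1 stood the other way round, at 6 (50%) and 23 (71.9%), while MED1 and CREBBP were each at 2 (16.7%) and 5 (15.6%). The genes of a family share sequence and are not independent of each other.

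The genes of the silencing pathway that KRAB zinc finger proteins use were counted in the same way. Of 20 such genes, 17 (85.0%) had OCA-B at an end, against 46.2% of all protein-coding genes. OCT1 was at 17 (against 41.9%), EP300 at 17 (45.5%), OCT2 at 16 (40.9%), MED1 at 13 (33.7%) and CREBBP at 10 (31.0%). ATF7IP, the partner of SETDB1, had an OCA-B fold of 24.8, OCT2 of 18.7 and OCT1 of 14.4, and MORC2, an effector of the HUSH complex, had 20.9 for OCA-B and 15.7 for OCT1. TRIM28 itself lies in the span at chr19:58544064-58550715 and had only OCA-B (4.87) and OCT1 (4.22) at an end. SETDB1 had 6.77 for OCA-B and no CREBBP. UHRF1 had no peak at an end in any list.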

How the data were processed

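ChIP-seq peak lists of 3 octamer factors and 3 coactivators in OCI-Ly7 cells were used, 1 library each. Per the submitters' processing notes, the tools were MACS2 2.1.1.20160309, SAMtools 1.3.1, Bowtie2 2.3.2.2 and CASAVA 1.8.2, with build hg38. Per the file headers, each library was called alone against the same control at a q threshold of 0.05. The deposited pileup signal, fold ratio over control, −log10 p-value and −log10 q-value are the authors'. How tags that fit several copies of a gene were placed is not given in the sources used here.

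Genes and 300-base start windows came from RefSeq tables of GRCh38.p14, on chromosomes 1 to 22 and X. A gene was counted where any part of a peak lay inside it or within 1 kb of either end. Counts, shares and medians were computed with Python 3.11.15, pandas 2.3.3 and numpy 2.4.6, and the counting was tested on simulated data. No test across genes was run, and the closing section gives other settings. The members and lists (silencing partners, receptor families, zinc finger genes of other names, cell type markers) were chosen with earlier results of these data known. Named genes were, for each list, the 4 with the highest fold at an end. To these were added up to 12 with a peak in 6 lists, up to 15 without a peak, the 4 with most peaks inside, the ZSCAN genes, ZNF274 and ZNF331. Of the other genes of the span the 3 strongest in each list and TRIM28 were named. Zinc fingers in the proteins were not analysed here.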

Additional observations from a re-analysis of the deposited data

How the results depend on the processing

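Each comparison with the other genes of the span was repeated with a 2 kb distance, summits in place of peaks, a −log10 q of at least 5, lists shortened to the shortest, each peak given to 1 gene, and the comparison genes without zinc finger genes of other names or, added after seeing the data, without the receptor families. OCA-B and OCT1 differences kept their sign in each of these. With lists shortened, the genes with a peak fell to 20 for OCT2, 18 for MED1, 17 for CREBBP and 8 for EP300, and the OCT2 difference was 0.755 points by the rule and -0.370 at ends, the EP300 differences -6.09 and -5.09, and the CREBBP difference by the rule 0.273. Without receptor families the OCA-B differences were 13.7 points by the rule and 11.6 at ends, the OCT1 differences were 14.9 points by the rule and 12.2 at ends, the MED1 differences -3.54 and -2.92, and the EP300 difference at ends -2.36. With each peak given to 1 gene the CREBBP differences were 1.22 and 1.90, with summits the CREBBP difference at ends was 0.418, and with 2 kb the EP300 difference at ends was -1.43. Shortening removes weaker peaks by construction, and for the other changes the cause was not tested. A total of 70 of 84 alternative differences and 26 of 30 alternative counts stayed near the reported value, that is, moved by less than the margin of the exact binomial 95% interval of the cluster's share or, for counts, by no more than 1.5 times. Of the other differences 11 changed sign and 3 moved further. That margin is a yardstick only, because cluster genes share sequence and peaks and are not independent. It is wide beside the small coactivator differences, which can change much and still count as near. No paired analysis was possible because each factor has 1 library. Weak sites below the peak caller's threshold are outside these lists, so a gene without a peak is not shown to be unbound.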
